A study of Mus musculus with 45 samples.

Results

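Cells make cholesterol and fatty acids from acetyl-CoA in the cytosol, and 33 genes of these routes were followed while mouse neural progenitors were turned into pluripotent cells. The genes were taken by name from textbook pathways, with earlier results of these data known, and all 33 were present among the 23575 genes of the table. Shares over all genes are given below as a background and are not a test of the list. They were read in 5 groups by role: the mevalonate pathway (8 genes), the steps from squalene to cholesterol (10 genes), sterol sensing and transport (5 genes), fatty acid building blocks (5 genes), and desaturation and elongation (5 genes). All 33 had reads in each of the 45 libraries, so none was lost to a filter on low values.

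The mevalonate pathway joins acetyl-CoA units into isoprenoids and then into squalene. Squalene is oxidised, closed into a ring and trimmed in the endoplasmic reticulum to give cholesterol. Both this route and fatty acid synthesis are switched on by SREBP proteins, the products of Srebf1 and Srebf2. Scap escorts them to the Golgi, where they are cut and released, and Insig1 holds Scap back when sterols are plentiful. Serum brings lipoprotein cholesterol and fatty acids to cells, which is why cultured cells moved between lipid-rich and lipid-poor media have long been used to study these genes. In the brain cholesterol is made locally, since lipoproteins of the blood hardly pass into it.

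The study used line O4G, embryonic stem cells with an Oct4-GFP reporter derived from the R1 line, and neural progenitors made from them. The progenitors had stably received a doxycycline-inducible factor set, named OKMS-Luciferase-AS or OKS-Luciferase-AS in the labels (OKMS and OKS from here on, which differ by Myc in name), or were wild type (WT). The labels do not state whether a line is a single clone or what the luciferase element does. Progenitors grew in NPC medium, which is serum-free N2B27 with EGF, FGF-2 and heparin. Cells for induction were seeded in the same medium with a little fetal bovine serum and received FBS-LIF the day after, a serum-based DMEM medium with LIF in its name and doxycycline added. WT cells kept for 2 days in FBS-LIF with doxycycline served as the control without factors. Cells labelled 2i-LIF had been moved to LIF with CHIR-99021 and PD0325901 in serum-free N2B27, at day 6 for the R9 libraries. The day of that move is not given for the R10 libraries of day 18, and no doxycycline is listed in 2i-LIF. Embryonic stem cells of the lines O4G, R1 and R1 clone 3 were kept in 2i-LIF. NPC medium and 2i-LIF thus share the N2B27 base and contain no serum, except for the seeding step.

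Libraries were read on Oxford Nanopore flow cells in 2 chemistries. R9 stands for 22 libraries made as direct cDNA after poly(A) enrichment, with 448250 to 1391635 reads each, and R10 for 23 PCR cDNA libraries of total RNA with 567129 to 4245818 reads each. All comparisons were made within a chemistry or within pairs of one chemistry. Each day and factor set had 1 library per chemistry, and no label says that numbered libraries came from separate cultures. P-values thus measure the spread between these libraries, which may be technical where only the replicate number differs. In the comparisons of days this spread includes how far OKMS and OKS differ in their course. Where an arm pools factor sets, days or cell lines, the spread includes the differences between those. The pluripotency markers (8 genes) summed to 10.8 to 30.4 CPM (reads of a gene scaled to a common total per library) in the R9 progenitors and 11240 to 12580 CPM in the R9 stem cells, so the libraries matched those labels. R10 libraries differed in their share of mitochondrial reads, and are given here in 3 sets by label, of which the latter pair overlap in share: 0.124% to 0.319% in the 4 WT libraries and the R1 stem cell library without an n number, 0.730% to 1.64% where factor lines were sampled no later than day 10, and 1.56% to 2.35% at day 18 and in the 6 numbered stem cell libraries. Differences between day 18 or stem cells and progenitors in R10, and between cells with and without factors at day 2, run along these sets, and their part in those results was not tested. The WT medium control lies within 1 set. In bulk RNA, fewer cells making a transcript and less of it per cell cannot be told apart.

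SREBP proteins bind sterol regulatory elements in promoters together with NF-Y, which binds CCAAT, and Sp1, which binds GGGCGG. RefSeq promoter sequences (GRCm38.p6) were at hand for 26 of the 33 genes, and the 250 bases before each transcription start were searched on both strands for 4 letter patterns. The core TCACNCCAC was found for 1 of 26 genes (3.8%), Hmgcs1, against 1.22% of 27025 genes with a promoter in the table. CCAAT was found for 20 of 26 (76.9%) against 37.49% of all genes, and GGGCGG for 22 of 26 (84.6%) against 35.36%. CACGTG, the E-box, was found for 5 of 26 (19.2%) against 6.86%. The background genes were not chosen by expression, whereas all 33 genes had reads in every library, so the shares are not matched. A match is a string of letters and not a shown binding site. The stretches of 3 genes are printed below up to the first base of any known transcript, since their transcripts are among those followed here. Hmgcs1 was chosen as the gene with the sterol core, and Srebf2 and Insig1 were added after the matches were seen because they hold CCAAT and GGGCGG in the same stretch. Capitals mark the matches of the 4 patterns, with ATTGG and CCGCCC as the reverse-strand forms of CCAAT and GGGCGG. The Hmgcs1 stretch is chr13:119690101-119690305, the Srebf2 stretch chr15:82147019-82147180 and the Insig1 stretch chr5:28071162-28071354, each on the plus strand and 5′ to 3′.
Hmgcs1: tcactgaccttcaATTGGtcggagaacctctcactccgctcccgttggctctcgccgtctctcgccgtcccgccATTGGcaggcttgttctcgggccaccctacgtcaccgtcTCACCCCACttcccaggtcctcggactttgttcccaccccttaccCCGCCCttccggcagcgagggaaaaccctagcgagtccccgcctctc
Srebf2: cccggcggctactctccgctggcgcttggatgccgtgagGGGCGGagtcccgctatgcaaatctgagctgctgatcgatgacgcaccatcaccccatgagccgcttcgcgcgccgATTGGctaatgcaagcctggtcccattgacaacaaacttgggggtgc
Insig1: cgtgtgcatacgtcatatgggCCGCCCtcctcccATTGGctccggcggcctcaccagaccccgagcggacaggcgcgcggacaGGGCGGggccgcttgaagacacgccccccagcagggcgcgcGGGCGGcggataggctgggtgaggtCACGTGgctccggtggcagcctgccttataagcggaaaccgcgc
The Hmgcs1 stretch holds TCACCCCAC once, with ATTGG at 2 places before it and CCGCCC once after it. The Srebf2 stretch holds GGGCGG and ATTGG once each. The Insig1 stretch holds ATTGG once, CCGCCC once, GGGCGG at 2 places and CACGTG once.

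**Figure D1:**
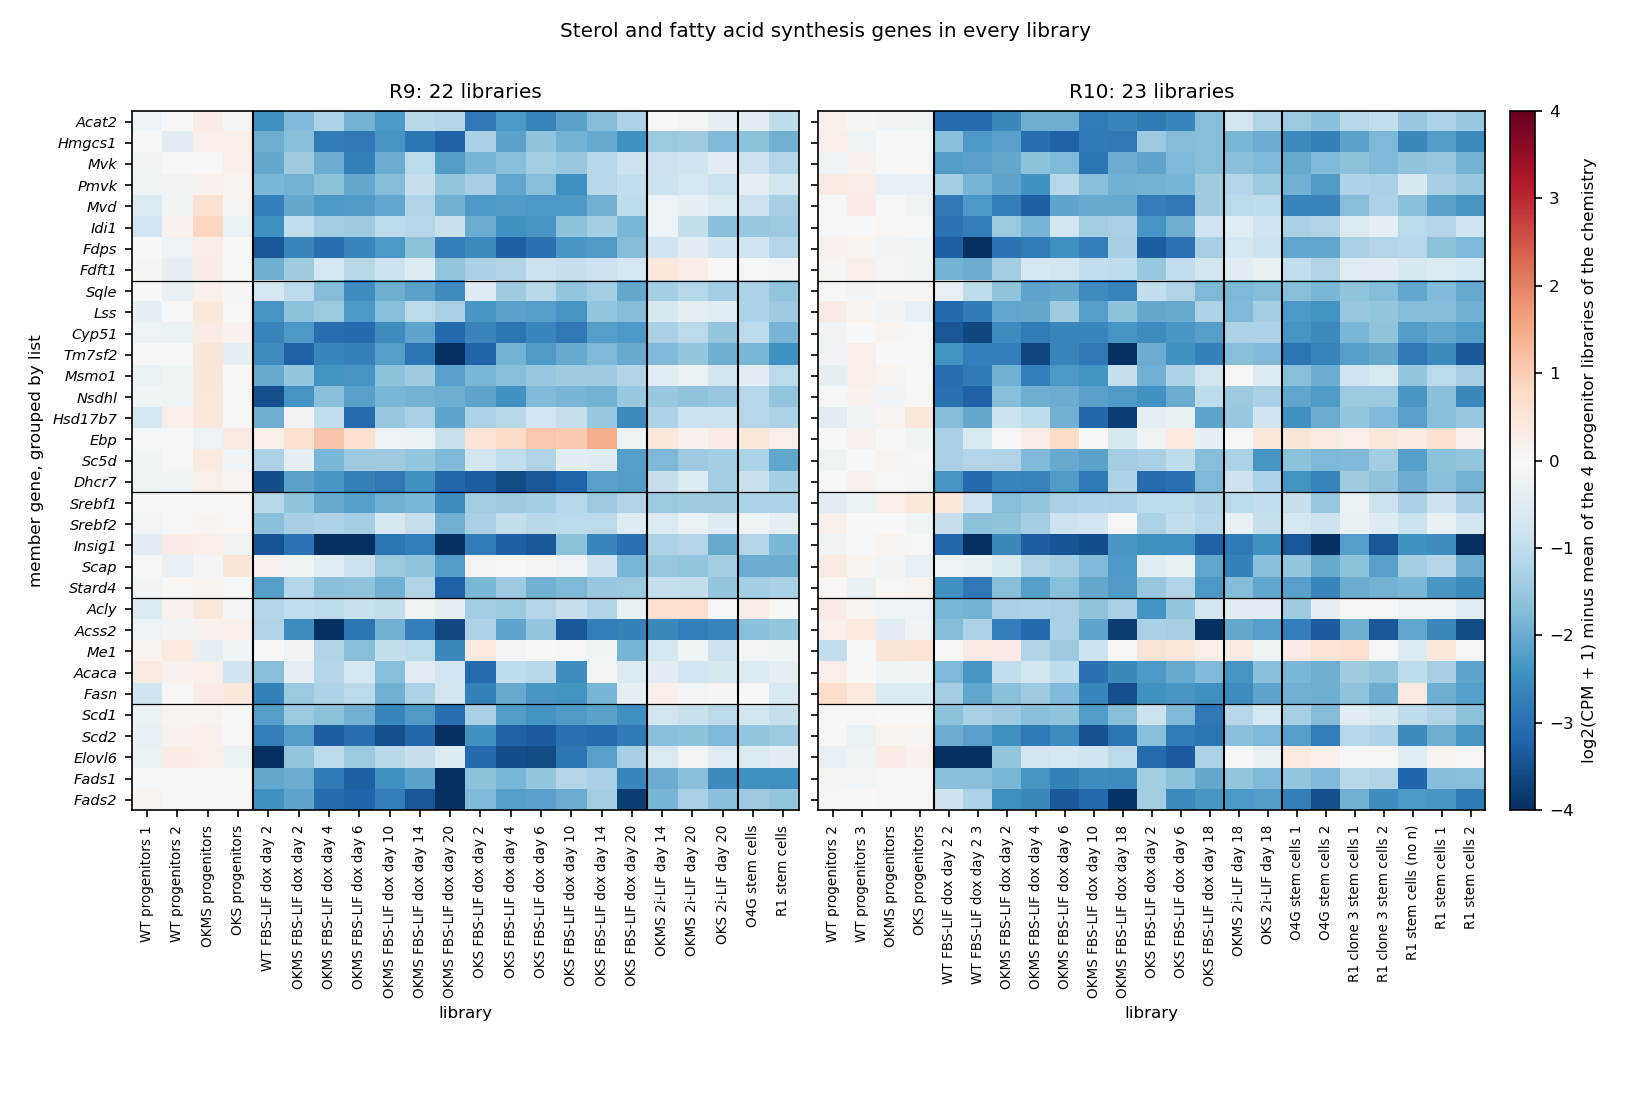
Each of the 33 genes (vertical axis, by role) in each of the 45 libraries (horizontal axis, by chemistry, medium and day), coloured by the difference of log2(CPM + 1) from the mean of the 4 progenitor libraries of the same chemistry. Blue is lower than progenitors; most genes are blue in FBS-LIF, paler in 2i-LIF and the stem cells, and Ebp is near the progenitor level or above it in many libraries.

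Summed over the 33 genes, progenitors held the most of these transcripts, and reprogramming cells held less in FBS-LIF than in 2i-LIF. The sum was 5976 to 8063 CPM in 4 R9 progenitor libraries and 8407 to 9350 CPM in 4 R10 ones. In FBS-LIF it was 1331 to 2171 CPM in the 12 R9 libraries with factors and 1756 to 2617 CPM in the 8 R10 ones. WT cells in FBS-LIF, without factors, had 1678 CPM in R9 and 2462 and 1946 CPM in R10, inside the range of the induced cells in R10 and in R9. After the move to 2i-LIF the sum was 3219 to 3978 CPM in 3 R9 libraries and 3507 and 3777 CPM in the R10 ones. Stem cells had 3640 and 2996 CPM in R9 and 2318 to 3818 CPM in 7 R10 libraries. No FBS-LIF library reached a progenitor library of its chemistry or one of reprogramming cells moved to 2i-LIF. The stem cells of R10 overlapped with both: 3 of 7 (both O4G libraries and R1 replicate 2) lay below the highest FBS-LIF library, OKS at day 18.

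The first comparison was of cells without factors, from 2 R10 WT libraries after 2 days in FBS-LIF with doxycycline against 2 R10 WT progenitor libraries. Serum, LIF, doxycycline, the change of base medium from N2B27 to DMEM, the loss of EGF, FGF-2 and heparin and the 2 days cannot be told apart in it. Of the 33 genes 28 fell and none rose, with a median log2 difference of -2.09 against 0.12 over all genes. Called here means a Benjamini-Hochberg adjusted p under 0.05 over all genes tested by limma and a log2 difference of at least 1 in size. In this comparison 26.8% of the 14688 genes tested were called, and 11.9% were called lower. The calls need all 4 libraries: leaving out either progenitor library or replicate 2 in FBS-LIF left 0 called genes and leaving out replicate 3 in FBS-LIF left 10, in fits with 1 residual degree of freedom, while the median stayed between -2.25 and -1.98.

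All 8 mevalonate genes fell in this control, with a median of -2.45. Hmgcs1, which joins acetyl-CoA units into HMG-CoA, stood at 1137 and 835 CPM in the R10 WT progenitors and at 301 and 193 CPM in FBS-LIF. That is a log2 difference of -2.01 ± 0.31 (SE; limma adjusted p = 0.00898). Idi1, which converts isopentenyl into dimethylallyl diphosphate, went from 49.9 and 51.6 CPM to 5.87 and 6.92 CPM. Fdps, which makes farnesyl diphosphate, fell by 3.85 on the log2 scale, from 455 and 450 CPM to 41.5 and 22.4 CPM. Acat2, which makes acetoacetyl-CoA, fell by 3.24, and Fdft1, which makes squalene, fell by 2.09. In each of these genes both FBS-LIF libraries lay below both progenitor libraries.

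Among the 10 genes from squalene to cholesterol 8 fell, with a median of -2.71. Cyp51, the lanosterol demethylase, stood at 280 and 314 CPM in progenitors and at 27.8 and 23.7 CPM in FBS-LIF, a log2 difference of -3.48 ± 0.21 (SE; limma adjusted p = 0.00127). Lss, which closes the ring, fell by 3.20, and Nsdhl, a decarboxylating sterol dehydrogenase, fell by 3.16. Sqle, the squalene epoxidase, did not pass the test: it had 253 and 236 CPM in progenitors and 208 and 130 CPM in FBS-LIF, a difference of -0.57 ± 0.28 (SE; limma adjusted p = 0.177). Ebp, a sterol isomerase, missed it too, at -1.02 with a limma adjusted p of 0.0534. The smallest called change of this group was that of Sc5d, the sterol C5-desaturase, at -1.14.

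Of the 5 sensing and transport genes 3 fell. Insig1 went from 539 and 605 CPM to 65.4 and 21.4 CPM, a log2 difference of -3.89 ± 0.50 (SE; limma adjusted p = 0.00567), and its 2 FBS-LIF libraries differed from each other more than those of most genes. Stard4, a sterol carrier of the cytosol, had 163 and 125 CPM in progenitors and 27.4 and 20.4 CPM in FBS-LIF. Srebf2, which encodes the SREBP of the cholesterol route, fell by 1.38, from 180 and 154 CPM to 81.4 and 49.7 CPM. Srebf1, the SREBP gene of the fatty acid route, had 62.6 and 70.3 CPM in progenitors and 113 and 47.4 CPM in FBS-LIF. The FBS-LIF libraries thus lay on either side of the progenitors for Srebf1 (difference 0.14, limma adjusted p = 0.831). Scap had 79.4 and 68.9 CPM against 52.5 and 50.1 CPM and did not pass (-0.52, limma adjusted p = 0.128).

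Of the 5 building-block genes 4 fell. Fasn, the fatty acid synthase, had 873 and 706 CPM in R10 WT progenitors and 202 and 126 CPM in FBS-LIF, a log2 difference of -2.29 ± 0.30 (SE; limma adjusted p = 0.00563). Acly, which cuts citrate into acetyl-CoA, fell by 2.09, Acaca, which makes malonyl-CoA, fell by 2.22, and Acss2, which activates acetate, fell by 1.81. Me1, a source of NADPH, did not pass at 0.70 (limma adjusted p = 0.222).

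All 5 desaturation and elongation genes fell. Elovl6, which lengthens palmitate, changed most of the 33 genes, from 171 and 186 CPM to 10.2 and 9.88 CPM, a log2 difference of -4.03 ± 0.23 (SE; limma adjusted p = 0.00117). Scd2, a stearoyl-CoA desaturase, went from 1172 and 957 CPM to 292 and 253 CPM, and its paralog Scd1 from 333 and 308 CPM to 102 and 129 CPM. Fads1 and Fads2, the desaturases of polyunsaturated fatty acids, fell too: Fads1 from 248 and 216 CPM to 72.4 and 71.8 CPM, and Fads2 from 363 and 342 CPM to 198 and 145 CPM. Scd1 and Scd2 lie in the same region of chromosome 19 and resemble each other, and how the counting shared reads between such copies is not stated. A joined entry of Scd2 with Scd3 reached at most 1.17 CPM.

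**Figure D2:**
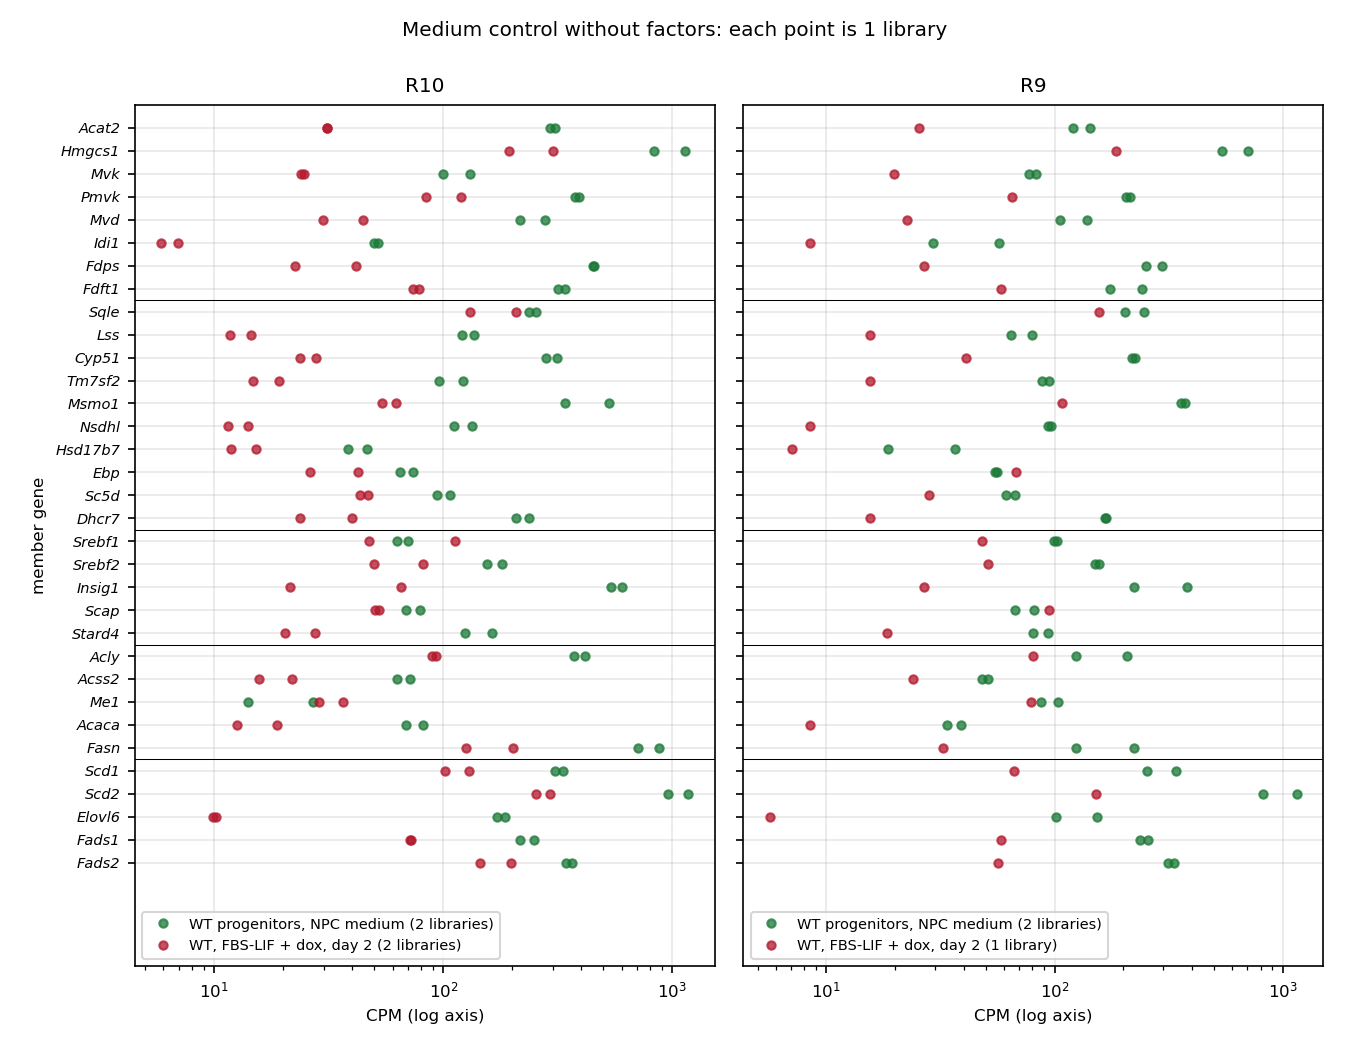
Level in CPM (horizontal log axis) of each of the 33 genes (vertical axis, lines between the roles) in WT progenitors (green) and in WT cells after 2 days in FBS-LIF with doxycycline (red), 1 point per library, R10 left and R9 right. The red points of Elovl6 lie farthest from the green ones, and in R10 the Srebf1 points of the media overlap.

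The R9 control had a single WT library in FBS-LIF, set against 2 WT progenitor libraries and assumed to vary like them. There 31 of the 33 differences were negative with a median of -2.07, against 0.17 over all genes, and 5 genes passed the test. The 5 were Dhcr7 (-3.35), which makes cholesterol from 7-dehydrocholesterol, Nsdhl (-3.34), Fads2 (-2.49), Tm7sf2 (-2.48), a sterol reductase, and Cyp51 (-2.40). Of 16625 genes tested 9.4% were called and 0.541% called lower. Dhcr7 stood at 167 and 168 CPM in the R9 WT progenitors and 15.6 CPM in FBS-LIF, and Nsdhl at 96.3 and 93.9 CPM against 8.49 CPM. Elovl6 had the largest difference here too, 102 and 154 CPM against 5.66 CPM, but did not pass (-4.24 ± 0.40 SE, limma adjusted p = 0.109). Sqle had 246 and 203 CPM against 157 CPM and was not called (-0.51). Srebf1 had 99 and 103 CPM against 48.1 CPM, a difference of -1.05 (limma adjusted p = 0.104) where R10 gave 0.14. The fit has 1 residual degree of freedom. Over the alternatives, with all 4 R9 progenitor libraries as the arm among them, the median over the 33 genes stayed between -2.255 and -2.035.

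Other lipid genes did not all move with the 33. Over all genes 14.9% were called higher in the R10 control and 11.9% lower. The counts of 3 of 15, 2 of 17, 1 of 12 and 1 of 10 genes higher given here lie near the former, and those of 2 of 12, 3 of 17, 1 of 10 and 1 of 9 genes lower near the latter. Of 14 genes of fatty acid oxidation 9 rose in the R10 control and none fell, among them Acadm, a mitochondrial dehydrogenase (1.80, limma adjusted p = 0.00503). Of 5 tested genes of sterol efflux 2 rose, the cholesterol exporter Abca1 by 4.91 on the log2 scale and the LXR receptor gene Nr1h3 by 2.59. Of 12 genes of cholesterol uptake, storage and transport 1 rose, Osbpl9 (1.71), and 2 fell, Tmem97 (-3.51) and the lipoprotein receptor Scarb1 (-3.43). Glycerolipid synthesis had 3 of 15 genes higher, with Gpam, which starts glycerolipid assembly, at 3.35, and Ptdss1 at 1.41. Of 17 other elongation and activation genes 2 rose, Hacd2 (2.90) and Hacd3 (1.32), and 3 fell, led by Acsl4 (-2.39) and Hsd17b12 (-2.30). The isoprenoid branch had Fnta higher (1.37) and Pdss1 lower (-3.05) of 10 genes. Of 9 other genes of SREBP processing and its promoter partners (NF-Y subunits and Sp1), Hsp90b1 alone was called, at -1.0.

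Markers of other cell states moved in the same libraries. All 8 markers of dividing cells fell, with summed levels of 52.4 and 57.5 CPM in the R10 WT FBS-LIF libraries against 2851 to 3381 CPM in the R10 progenitors. Astrocyte markers had 3 of 8 genes higher and summed to 2403 and 4473 CPM against 274 to 428 CPM. Of the neural progenitor markers 4 of 7 tested fell, 3 of 6 mesenchymal markers and both oligodendrocyte markers tested rose, and no adipocyte marker was high enough to be tested (0 and 10.5 CPM summed). In the R9 WT FBS-LIF library division markers summed to 58.0 CPM (6 of 8 fell) and astrocyte markers to 1787 CPM, against 3402 and 3013 CPM and 329 and 294 CPM in the R9 WT progenitors. Adipocyte markers summed to 79.2 CPM there and to 0 in all R9 progenitors. The part of these shifts in the changes of the 33 genes was not tested. In the induced cells in FBS-LIF the division markers summed to 346 to 4901 CPM over 8 R10 libraries and 462 to 3327 CPM over 12 R9 libraries, where the 33 genes summed to 1756 to 2617 CPM and 1331 to 2171 CPM.

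The next comparison kept the medium and set the induced OKMS and OKS lines against WT cells, at day 2. Factors and line cannot be told apart in it. Before induction Fasn had 365 and 364 CPM in the R10 OKMS and OKS progenitors against 873 and 706 CPM in the WT ones. Hmgcs1 had 952 and 911 CPM there against 1137 and 835 CPM. Over 2 R10 libraries with factors (OKMS, OKS) and 2 without, none of the 33 genes was called by limma, edgeR called none and DESeq2 called 1, while 0.74% of 15402 genes were called (2344 genes had an unadjusted p under 0.05). The median over the 33 was 0.21. Elovl6 differed most, with 71.9 CPM in OKMS and 24.3 CPM in OKS against 10.2 and 9.88 CPM in WT cells (1.96 ± 0.57 SE, limma adjusted p = 0.157), and it was the gene called by DESeq2. The markers of dividing cells rose in 6 of 8 genes in this contrast. The 2 arms also lie in different sets by mitochondrial reads, 0.165% and 0.319% in the WT libraries against 1.51% and 1.64% in those with factors, and the part of this was not tested. That limma called no gene does not show that the levels were alike.

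During induction most of the 33 genes were called lower at each sampled day of R9, and 4 to 21 of them by day in R10. In R9, with OKMS and OKS at 6 days against their progenitors (14 libraries, factor set as a term), 24 of 33 genes were lower and none higher by limma's moderated F test, where 10.7% of 19357 genes were called and 5.24% called lower. Day by day, the lower calls among the 33 were 22 at day 2 (1.17% of all genes called lower), 23 at day 4 (1.68%), 23 at day 6 (1.82%), 24 at day 10 (2.56%), 21 at day 14 (2.41%) and 28 at day 20 (9.03%). These counts depend on single libraries: leaving out 1 library gave 8 to 25 at day 2, 9 to 26 at day 4, 13 to 26 at day 6, 13 to 25 at day 10, 6 to 22 at day 14 and 11 to 28 at day 20. Counts fell by more than 1.5 times without the OKMS library of the day itself (each day), its OKS library (days 2, 4, 10 and 14), the OKMS progenitors (each day except day 6) or the OKS progenitors (day 2). Day 0 and the later days differ in medium and doxycycline as well as in time, and these cannot be told apart within this series of days. The 8 R10 libraries of days 0, 2, 6 and 18 gave 18 lower genes and none higher, with 9.04% of 17487 genes called and 4.25% called lower. There 4 genes were called lower at day 2 (0.16% of all genes), 9 at day 6 (0.589%) and 21 at day 18 (8.54%), and leaving out 1 library gave 0 to 12, 0 to 12 and 0 to 23. The R10 calls rest on few libraries: leaving out the day 2 or progenitor library of either factor set left 0, leaving out the day 18 library of OKMS left 4 and that of OKS 10, and leaving out day 18 altogether left 7.

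Hmgcs1 and Idi1 are the mevalonate genes given by library. Hmgcs1 had 835 and 858 CPM in the OKMS and OKS progenitors and 76.3, 152 and 291 CPM as the lowest, median and highest of the 12 R9 libraries in FBS-LIF. Its lowest level was that of OKMS at day 20, and its largest daily difference was -3.05 ± 0.29 (SE, day 20; limma adjusted p of the F test = 0.000866). Idi1 stood at 91.5 and 42.2 CPM in those progenitors and between 8.58 and 27.1 CPM, with a median of 18.3 CPM, in FBS-LIF. The R10 levels of Hmgcs1 were 952 and 911 CPM in progenitors and 101, 171 and 347 CPM (lowest, median, highest of 8) in FBS-LIF. None of the 20 induced libraries reached its progenitors in either gene.

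Of the sterol genes, Cyp51 had 334 and 298 CPM in R9 progenitors with factor sets and 29.6, 42.1 and 60.1 CPM as lowest, median and highest in FBS-LIF. Sqle, not called in WT cells at 2 days, was 289 and 270 CPM in those progenitors and 43.1, 78.8 and 176 CPM in FBS-LIF. Its day 2 difference was -0.93 (limma adjusted p = 0.146) and its day 20 difference -2.43 (limma adjusted p = 0.000674), and it was called at each day from day 4 on. In R10 Sqle had 283 and 281 CPM in progenitors and 85.4, 60.7, 62.7, 45.0 and 40.1 CPM in OKMS at days 2, 4, 6, 10 and 18. The OKS libraries gave 133, 114 and 75.5 CPM at days 2, 6 and 18. Tm7sf2 had the second largest difference of R10 (-3.44, day 18), from 103 and 99.3 CPM to 4.45 CPM (3 reads) in OKMS and 15.4 CPM (12 reads) in OKS. Of this group 7 of 10 genes passed the F test in R9. Hsd17b7 and Sc5d did not, and were called lower at day 20 alone (-2.53 and -2.10), and Ebp was called at no day, with differences from -0.61 to 0.89 and above day 0 from day 2 to day 14.

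Insig1 had 368 and 278 CPM in R9 progenitors with factor sets and 12.5, 38.3 and 98.2 CPM as lowest, median and highest in FBS-LIF. The largest difference was -3.96 ± 0.43 (SE, day 4; limma adjusted p of the F test = 0.00150). Stard4 went from 96.9 and 84.3 CPM to between 8.62 and 38.4 CPM in R9. By the F test it was called in R10 but not in R9 (limma adjusted p = 0.0840). Srebf1 was 105 and 111 CPM in those R9 progenitors and 17.2, 35.6 and 46.8 CPM in FBS-LIF, and fell in both chemistries. Srebf2 was 180 and 172 CPM and then 43.1, 76.6 and 114 CPM, which did not pass the F test (limma adjusted p = 0.145). At day 20 of R9 all 5 sensing and transport genes were called lower, Stard4 and Srebf2 included. Both SREBP genes were lower in all 12 R9 libraries than in either progenitor library of the factor lines. In R10 this did not hold for Srebf2. It had 157 and 138 CPM in the OKMS and OKS progenitors, and 148 CPM in OKMS and 70.4 CPM in OKS at day 18.

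Fasn had 275 and 290 CPM in the R9 progenitors with factor sets and 32.1, 67.8 and 169 CPM as lowest, median and highest in FBS-LIF, with its highest value in OKS at day 20. Acss2 showed the largest difference of the R10 days (-3.89 ± 0.62 SE, day 18; limma adjusted p of the F test = 0.0361). It went from 39.1 and 48.5 CPM to 2.97 CPM (2 reads) in OKMS and 1.28 CPM (1 read) in OKS. These day 18 values lie at the floor of counting, so the size and rank of the difference are uncertain. Scd2 went from 1189 and 978 CPM to 54.2, 118 and 215 CPM in R9, and Scd1 from 341 and 302 CPM to 36.9, 64.1 and 124 CPM. Fads2 had the largest difference of the R9 days, -3.99 ± 0.41 (SE, day 20; limma adjusted p of the F test = 0.00248), from 285 and 288 CPM to 13.5 CPM in OKMS and 21.6 CPM in OKS. Fads1 went from 230 and 248 CPM to 12.3, 57.4 and 107 CPM. Each of these genes was lower in all 12 R9 FBS-LIF libraries than in both progenitors.

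Elovl6 followed another course in the 2 factor sets. In OKMS it had 144 CPM at day 0 and 41.8, 58.4, 43.7, 56.3, 64.4 and 81.3 CPM at days 2, 4, 6, 10, 14 and 20 of R9. In OKS it had 101 CPM at day 0 and 13.4, 9.54, 9.37, 15.6, 26.5 and 48.1 CPM at the same days. R10 gave 71.9, 132 and 102 CPM in OKMS and 24.3, 20.5 and 88.4 CPM in OKS at days 2, 6 and 18. Elovl6 was the 1 gene of the 33 higher in OKMS than in OKS at every shared day, 6 in R9 and 3 in R10. At every one of these days 8 genes were higher in OKS: Hmgcs1, Sqle, Tm7sf2, Srebf1, Scap, Me1, Fads1 and Fads2. With 1 library per set and day this was not tested. The share of all genes that differ in this way was not counted, so these counts are a description only. The markers of dividing cells also differed by set, at 1563 to 3235 CPM in R9 OKMS and 462 to 3327 CPM in R9 OKS. So did the pluripotency markers, at 5600 CPM in OKMS and 89.2 CPM in OKS at day 10 of R9. They stood at 9322 and 608 CPM at day 14 and at 9153 and 7781 CPM at day 20. Neural progenitor markers summed to 484 CPM in OKMS and 2206 CPM in OKS at day 10 of R9. The part of these marker differences was not tested.

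**Figure D3:**
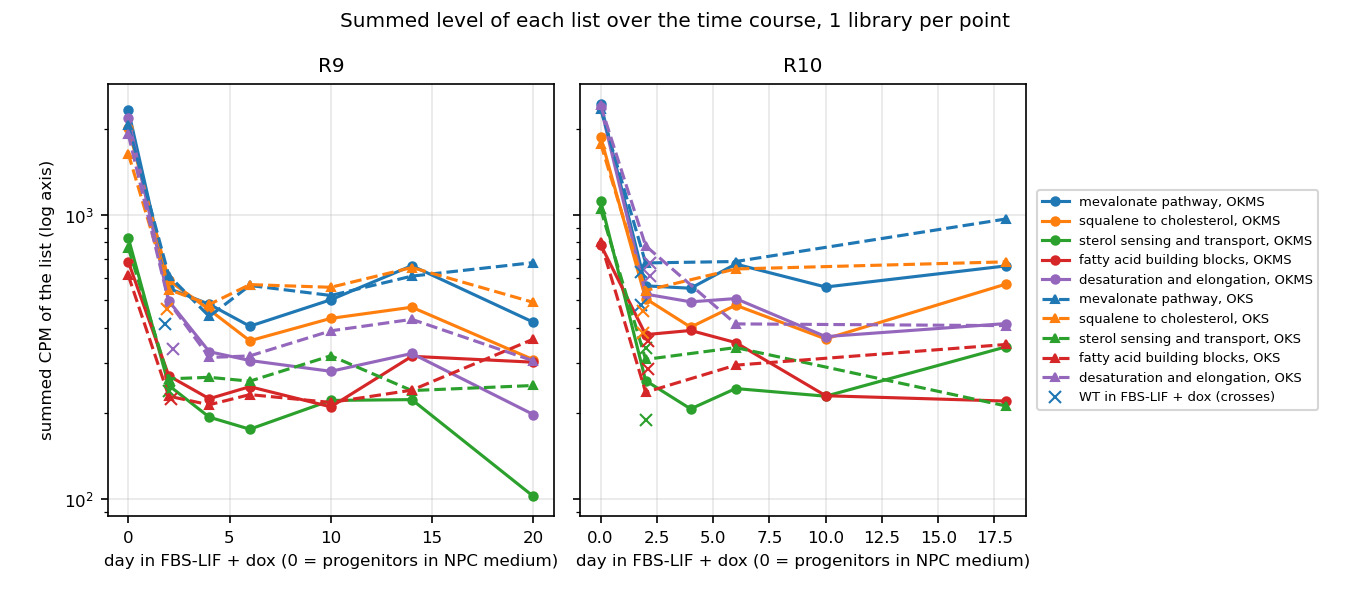
Summed CPM of each of the 5 gene groups (vertical log axis) against day in FBS-LIF with doxycycline, for OKMS (circles, solid) and OKS (triangles, dashed), 1 library per point, R9 left and R10 right; crosses are WT cells at day 2 in the colour of the group. Day 0 is the progenitor library in NPC medium; all groups are lower at day 2 and none returns to its day 0 level, and the lowest point of the induced cells is sterol sensing and transport in R9 OKMS at day 20 (102 CPM).

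Late and early R9 libraries in FBS-LIF have the same medium in both arms. Days 14 and 20 (4 libraries) against days 2 and 4 (4 libraries) gave 1 called gene of 33 where 10.7% of 14465 genes were called. It was Scap, with 74.6, 60.5, 92.3 and 84.9 CPM early (OKMS day 2 and 4, OKS day 2 and 4) and 27.4, 17.2, 47.2 and 23.0 CPM late. Its log2 difference was -1.49 ± 0.30 (SE; limma adjusted p = 0.0164), and no late library reached an early one. The call was lost without the day 2 library of OKMS or OKS, the day 4 library of OKS or the day 20 library of OKMS. The median over the 33 was 0.25 and 18 of 33 differences were positive, against -0.11 over all genes. The median ran from -0.03 to 0.46 over the alternatives, so its sign turned. Over the same days all 8 pluripotency markers and 6 of 8 division markers rose. The late libraries were not alike in this. Pluripotency markers summed to 608 CPM in OKS at day 14, and to 7781 to 9322 CPM in the other late libraries. Neural progenitor markers summed to 2486 CPM in OKS at day 14 and to 57.9 to 440 CPM in the others. Among other lipid genes Gpam (-2.28), higher in WT cells in serum, was lower late, and Abcg1, a cholesterol exporter, was higher (2.06).

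The next comparison held factor set and day the same. The arms differ in serum, in the base medium (DMEM against N2B27), in the 2 inhibitors and in doxycycline, which is not listed in 2i-LIF. These cannot be told apart. Over 5 pairs of libraries, 3 in R9 and 2 in R10, all 33 mean differences were positive in 2i-LIF against FBS-LIF and 10 genes rose, with a median of 0.78. Of 14935 genes tested 12.3% were called and 5.95% called higher, and the median over all genes was -0.03. The summed level went from 2001 to 3748 CPM in R9 OKMS at day 14, from 1331 to 3978 CPM in R9 OKMS at day 20, from 2092 to 3219 CPM in R9 OKS at day 20, from 2208 to 3777 CPM in R10 OKMS at day 18 and from 2617 to 3507 CPM in R10 OKS at day 18. Of the 33 genes 19 were higher in 2i-LIF in 5 of 5 pairs, 10 in 4, 3 in 3 and 1 in 2. The matching shares over all genes were not counted. Without the pair of R9 OKMS at day 20, which had the largest ratio of sums, 4 genes were called. These pairs share no library with the WT control, but their FBS-LIF arm is part of the series of days above.

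Fads2 and Scd1 had the largest differences over the 5 pairs. Fads2 had 27.4, 13.5 and 21.6 CPM in FBS-LIF and 83.1, 123 and 95.4 CPM in 2i-LIF in the R9 pairs, and 22.3 and 67.9 CPM against 70.5 and 73.5 CPM in the R10 pairs. Its log2 difference over 5 pairs was 1.70 ± 0.31 (SE; limma adjusted p = 0.00111). Scd1 had 63.3, 36.9 and 54.6 CPM against 184, 166 and 149 CPM in R9, and 97.9 and 43.5 CPM against 146 and 196 CPM in R10 (1.56 ± 0.22 SE, limma adjusted p = 0.000104). Scd2 gave 116, 54.2 and 143 CPM against 319, 328 and 291 CPM in R9, and 151 and 152 CPM against 360 and 332 CPM in R10. In all 3 genes 2i-LIF was higher in each pair. Fads1 was higher in each pair but did not pass (0.80, limma adjusted p = 0.0861), with 53.8, 12.3 and 38.8 CPM against 61.1, 75.2 and 40.7 CPM in R9.

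Of the sterol route Tm7sf2 (1.5), Hsd17b7 (1.31), a ketosteroid reductase, Dhcr7 (1.18), Cyp51 (1.13), Acat2 (1.10) and Fdps (1.04) rose. The first 2 rest on few reads in FBS-LIF. Tm7sf2 had 11, 3 and 31 reads in the R9 pairs and 3 and 12 in the R10 pairs. Hsd17b7 had 11, 5 and 6 reads in R9 and 2 and 9 in R10. Cyp51 had 60.1, 29.6 and 52.5 CPM against 106, 126 and 88.5 CPM in R9, and 59.4 and 66.6 CPM against 129 and 127 CPM in R10. Insig1 rose by 1.15 on the log2 scale over 5 pairs, from 44.3, 16 and 38.1 CPM to 126, 134 and 74.5 CPM in R9. In R10 Insig1 had 117 and 61.5 CPM in FBS-LIF and 82.9 and 109 CPM in 2i-LIF, lower in 1 pair and higher in the other. Hmgcs1 missed the size needed for a call (0.94, limma adjusted p = 0.00961), with 96.0, 76.3 and 135 CPM against 259, 270 and 212 CPM in R9. In R10 it went from 129 to 270 CPM in the OKMS pair and from 289 to 242 CPM in the OKS pair. Fasn was likewise below that size at 0.78 (limma adjusted p = 0.00881). Srebf1 (0.34) and Srebf2 (0.40) were not called. Idi1, Stard4, Sqle and Elovl6 were not called either, at 0.36, 0.64, 0.74 and 0.73.

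Within chemistry, the R9 pairs gave 11 higher genes, where 7.53% of 15482 genes were called and 3.6% called higher. Fads2 (2.25) and Insig1 (1.81) had the largest differences. The R10 pairs alone gave 0 called genes of 33 by limma, 3 by edgeR and 0 by DESeq2, with 1.22% of 15446 genes called and 2554 genes at an unadjusted p under 0.05. That fit has 1 residual degree of freedom, and the median over the 33 was 0.51. Other lipid genes moved in both directions over the 5 pairs, where 6.32% of all genes were called lower: Cpt1a, which admits fatty acids to the mitochondrion (1.64), and its partner Slc25a20 (1.63) rose, and Acadl (-1.30) and Soat1, which esterifies cholesterol for storage (-2.65), fell. Markers of neural progenitors (2 of 6 tested), astrocytes (3 of 5) and mesenchymal cells (3 of 6) fell in 2i-LIF and 5 of 8 pluripotency markers rose. Their part in the result was not tested. Division markers had 1 of 8 genes called, lower in 2i-LIF, while their sum was higher in 2i-LIF in 4 of 5 pairs. It went from 3223 to 3829, 3235 to 3866 and 3327 to 4136 CPM in the R9 pairs and from 4901 to 4112 and 3647 to 4187 CPM in the R10 pairs.

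**Figure D4:**
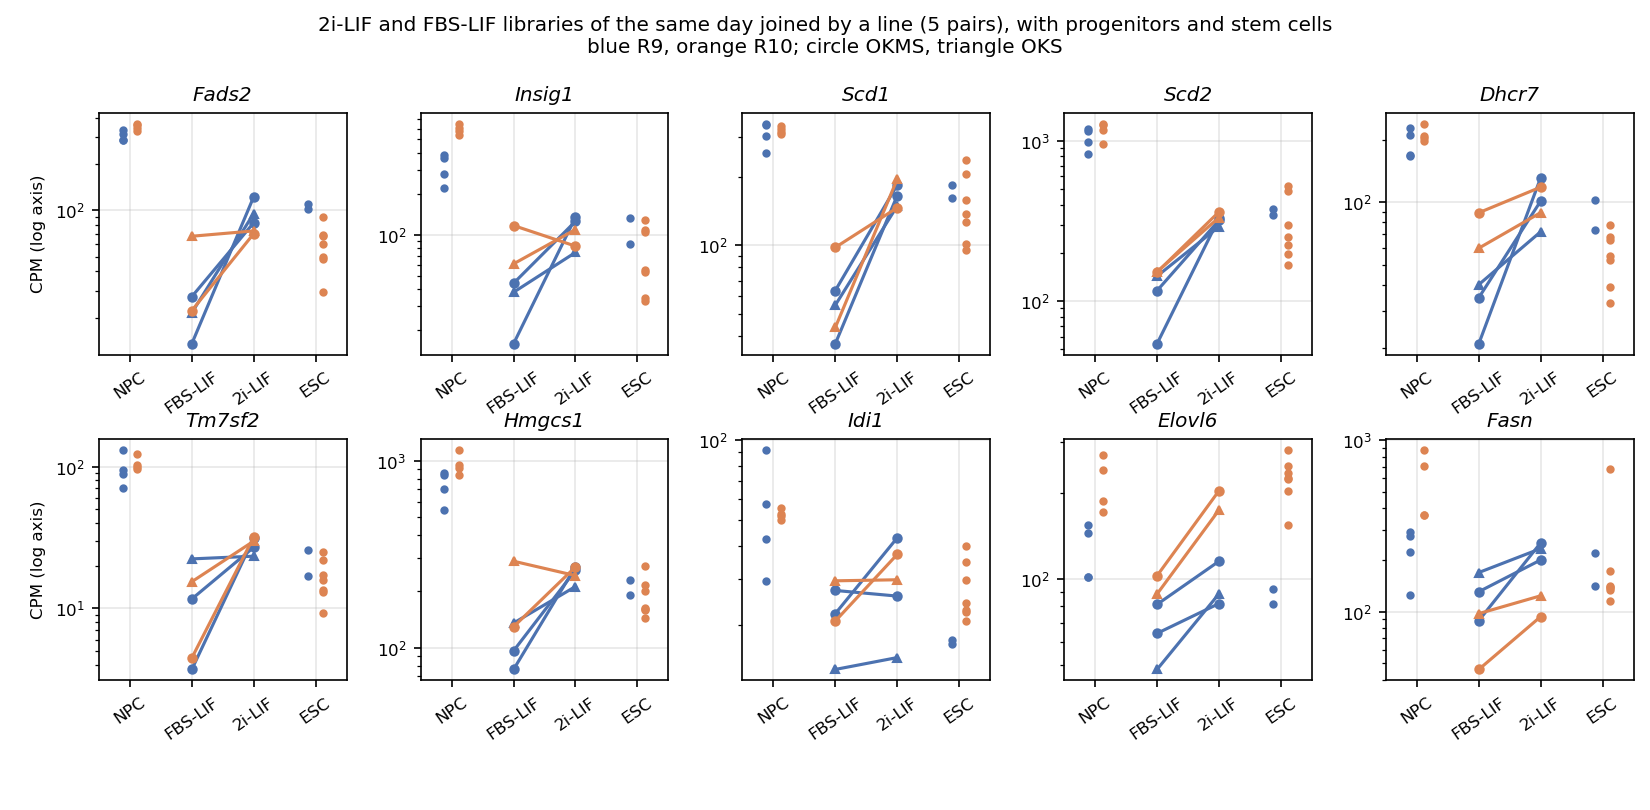
Level in CPM (vertical log axis, own scale per gene) of 10 genes in progenitors (NPC), FBS-LIF with doxycycline, 2i-LIF and stem cells (ESC), 1 point per library, R9 blue and R10 orange, circles OKMS and triangles OKS in the pairs. Lines join the 5 pairs of the same factor set and day; they climb in each pair for Fads2, Scd1 and Scd2, and for Insig1 and Hmgcs1 the line of 1 R10 pair goes down.

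Stem cells in 2i-LIF and progenitors in NPC medium are both free of serum, and they differed in these genes. They also differ in cell type, inhibitors and growth factors, which cannot be told apart here. In R10, with 7 stem cell and 4 progenitor libraries, 26 of 33 genes were lower in stem cells and none higher, with a median of -1.71 against 0.01 over all genes. The background is large here: 45.8% of 15415 genes were called and 23.5% called lower. R9, with 2 stem cell and 4 progenitor libraries, gave 20 lower genes and none higher, a median of -1.19, and 36% of 15746 genes called with 18.4% called lower. Division markers summed to 3363 to 4067 CPM in R10 stem cells and 2851 to 3381 CPM in R10 progenitors. Over the alternatives in R10 the median over the 33 genes stayed between -1.757 and -1.482. Among these was a fit with the R1 library without an n number as the 1 stem cell library, assumed to vary like the 4 progenitor libraries. Its mitochondrial share is like that of the WT progenitors and unlike that of the OKMS and OKS progenitors. Without the R1 library 11 genes were called in R9.

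Insig1 differed most in R10, at 539, 605, 645 and 575 CPM in progenitors and 33.1, 55.4 and 128 CPM as lowest, median and highest of 7 stem cell libraries (-3.15 ± 0.33 SE, limma adjusted p = 4.59e-07). Acss2 came next (-2.81 ± 0.31 SE, limma adjusted p = 1.01e-06), from 39.1 to 71.7 CPM in progenitors to 3.61 to 13.3 CPM. Hmgcs1 had 835 to 1137 CPM in R10 progenitors and 144, 163 and 272 CPM in stem cells. Cyp51 had 280 to 344 CPM and then 52.0, 64.6 and 99.9 CPM, and Sqle 236 to 283 CPM and then 61.2, 77.1 and 86.1 CPM. Stard4 had 125 to 171 CPM and then 24.6, 33.2 and 42.6 CPM. For none of these genes did the stem cells reach the progenitors.

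Fads2 was 328 to 363 CPM in R10 progenitors and 29.6, 60.8 and 90.8 CPM in stem cells. Scd2 was 957 to 1265 CPM and then 168, 250 and 521 CPM, highest in R1 clone 3, and Scd1 308 to 333 CPM and then 95.4, 138 and 237 CPM. Fads1 differed most in R9, from 230 to 257 CPM to 44.5 and 43.7 CPM (-2.43 ± 0.11 SE, limma adjusted p = 3.73e-05), and Tm7sf2 followed (-2.13), from 70.8 to 131 CPM to 25.6 and 16.8 CPM. In R10 Fads1 had 216 to 248 CPM in progenitors and 25, 70.2 and 107 CPM in stem cells. Fasn was called in R10 (-1.61), with 115 to 173 CPM in 6 stem cell libraries and 681 CPM in the R1 library without an n number. Progenitors had 873 and 706 CPM in WT and 365 and 364 CPM in OKMS and OKS. The WT progenitors and that R1 library lie in the set with the lowest mitochondrial shares, and the part of this was not tested. In R9 Fasn did not pass (-0.30, limma adjusted p = 0.550).

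The R10 genes not called were Idi1 (-0.93), Fdft1 (-0.71), Srebf2 (-0.61), Acly (-0.40), Elovl6 (0.05), Me1 (0.19) and Ebp (0.38). Elovl6 had 171 to 270 CPM in R10 progenitors and 154, 225 and 281 CPM in stem cells, so the ranges overlapped. It was the gene with the largest fall in WT cells in serum. Idi1 had 49.9 to 55.4 CPM against 20.7, 24.3 and 39.9 CPM, below the size needed for a call. Srebf2 had 138 to 180 CPM and 85.5, 97.5 and 128 CPM. Over all genes 22.4% were called higher. Of the other lipid lists, uptake and storage had 7 of 12 genes lower, led by Vldlr (-3.53) and Soat1 (-3.37). Other elongation and activation genes had 11 of 17 lower, led by Hacd1 (-2.74), and 2 higher, Acacb (2.86) and Elovl7 (2.03), and fatty acid oxidation had 3 higher and 2 lower of 13.

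Deposited Srebf1 transcript models differ in where they begin. They were examined after the values were seen, so the shares are given as a description. Permutation tests of stem cells against progenitors were run on these shares, and for that reason are not used here. Mouse Srebf1 lies on chromosome 11 (60199094 to 60222808, minus strand, GRCm38), and RefSeq promoters place starts at 60222581, 60220627 and 60210471. Of the 48 deposited transcript models of the gene 3 began within 300 bases of the upstream start, 9 of the middle one, 14 of the downstream one and 22 at none of them. Transcript values are TPM, scaled to a common total of transcripts, and each model's TPM was multiplied by its length so that the shares approach shares of reads. The upstream start held 43.2% ± 15.4 (SD, n = 7) of Srebf1 in R10 stem cells and 1.14% ± 0.77 (SD, n = 4) in R10 progenitors. The lowest stem cell library had 23.4% and the highest progenitor library 1.72%. The downstream start, a share of the same total, held 30.6% ± 12.0 (SD, n = 7) in stem cells and 66.0% ± 6.21 (SD, n = 4) in progenitors.

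In R9 the upstream start held 45.6% ± 6.24 (SD, n = 2) in stem cells and 1.39% ± 2.78 (SD, n = 4) in progenitors. The 5 libraries in 2i-LIF all had reads at the upstream start, with shares of 22.2% to 37.5% in R9 and 37.5% and 75% in R10. In FBS-LIF 7 of 10 R10 libraries and 2 of 13 R9 libraries had any. The gene itself had few reads, 12 to 62 per R9 FBS-LIF library and 64 to 241 per R10 stem cell library. The shares rest on those assigned to transcript models, which can be far fewer and are not listed. Many shares are simple fractions, such as 80% and 20% in R9 OKMS at day 10 and 75% and 25% in R10 OKMS 2i-LIF at day 18. Such shares can come from a few assigned reads. The windows were chosen after the values were seen. The upstream models begin ahead of the listed start, so that a window of 200 bases drops the R10 difference from 42.0 to 4.61 percentage points. Without weighting by model length the difference was 18.1 percentage points.

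**Figure D5:**
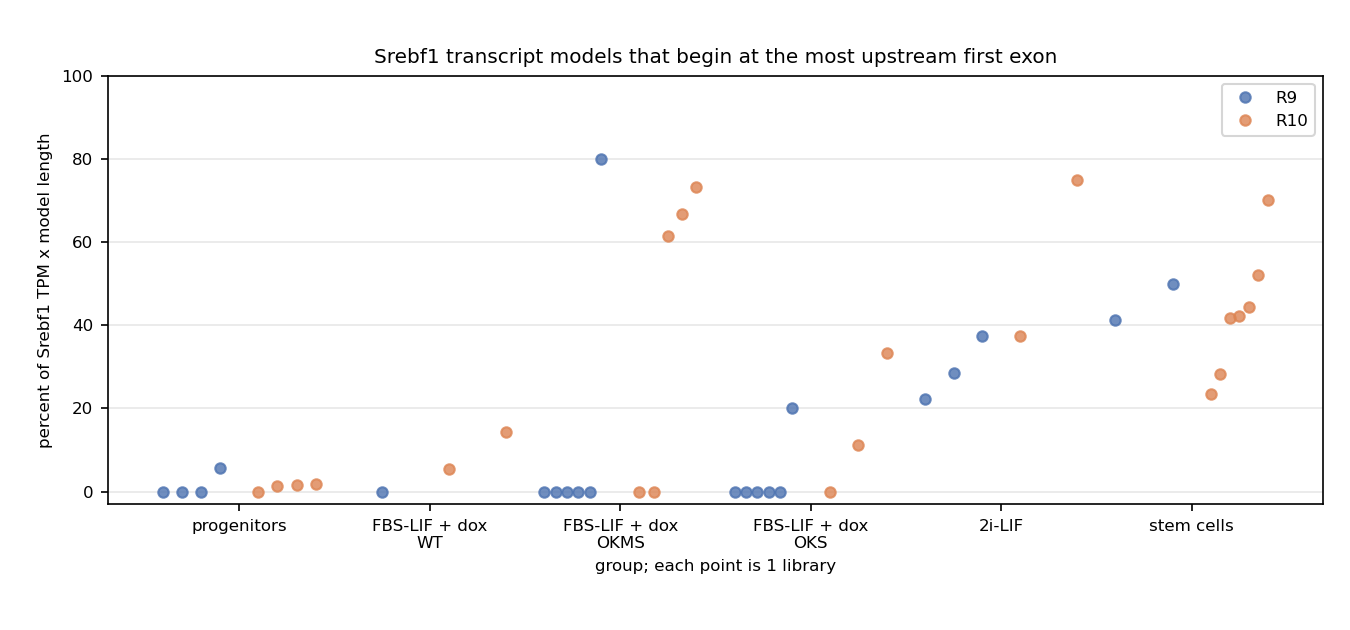
Percent of Srebf1 TPM, weighted by model length, in transcript models that begin at the upstream start (vertical axis), 1 point per library by group (horizontal axis), R9 blue and R10 orange. Progenitors lie between 0 and 5.56% and R10 stem cells between 23.4% and 70.0%. The points of OKMS in FBS-LIF are values at 0 and values of 61.5% to 80.0%, which can rest on a few reads each.

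Overlapping genes limit a few of these values. Whether counting used strand is not stated. Antisense entries are listed for Acaca, Acat2, Acly, Elovl6, Scd2 and Srebf2 at no more than 6.73 CPM, and for Fads1 at 1.28 to 45.8 CPM. A joined entry of Vps51 with Tm7sf2 reached 18.4 CPM, above the Tm7sf2 level of some FBS-LIF libraries.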

How the data were processed

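Nanopore long-read libraries of 45 mouse cultures were analysed from the authors' deposited tables. Gene values were deposited as CPM, in a table named after IsoQuant, and transcript values were deposited as TPM. Other deposited columns, such as transcript coordinates in the annotation, were used only to place genes and first exons. The submitters' processing notes name minimap2 2.24-r1122 and mm10, and the settings of counting are not given in the sources used here. All CPM values were whole multiples of 1 read within 0.02 reads (100% of values), which gave the reads and the depth of each library (448250 to 4245818). No sample matched 13 other columns of the gene table, which were left out.

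Tests used limma 3.58.1 (R 4.3.3; eBayes with a mean trend) on log2(CPM + 1). A gene entered a fit if the number of libraries with 1 CPM or more was no smaller than the smaller arm. Calls needed a two-sided Benjamini-Hochberg adjusted p under 0.05 together with a log2 difference of 1 or more in size. For low genes this scale makes a change look smaller than it is. Factor set was an additive term in comparisons of days, and the pair a block between media. Depth limits low genes: 1 read was the lowest value of any of the 33 genes in a library. Results were recomputed on the recovered reads with edgeR 4.0.16 and with DESeq2 1.42.0, and on CPM with quantile normalization, median centring, a filter of 5 CPM or none, a pseudocount of 0.25, a replicate block, other arms, and each library left out. On simulated counts the medium control in R10 recovered 99% of genes changed by a log2 of 2, and that in R9 0%. The simulation gave all genes the same dispersion, let libraries differ only in depth and in the change, and changed only genes above a set mean level. Far fewer genes changed in it than were called in the data (3940 in R10 and 1562 in R9). The recovered shares thus do not give the power of the real fits.

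The 33 genes and the other lists were chosen with earlier results of these data known. Hmgcs1, Idi1, Sqle, Cyp51, Insig1, Stard4, Srebf1, Srebf2, Fasn, Scd1, Scd2, Elovl6, Fads1 and Fads2 were set to be described in every library, together with the 2 called genes of the largest difference per direction and comparison and, of each other list, up to 2 per direction. Promoters came from RefSeq (GRCm38.p6). Srebf1 starts were examined after the data were seen, with a window of 300 bases. A result on 1 gene of fatty acid oxidation is not reported here.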

Additional observations from a re-analysis of the deposited data

Results flagged for a closer look

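In the R10 stem cells 1 library stood far from the other 6 for Fasn: the R1 library without an n number had 681 CPM, where the others had 115 to 173 CPM. The WT progenitors of its mitochondrial set had 873 and 706 CPM, and the OKMS and OKS progenitors of another set 365 and 364 CPM. Nsdhl in the R9 progenitors was 147 CPM in the OKMS library against 93.9 to 101 CPM in the other 3. These were 2 of 99 sets of a gene and a group of 4 to 7 libraries (2.0%), where chance alone marks about 1 in 20.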

How the results depend on the processing

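Counts of called genes among the 33 were recomputed in 158 alternatives, of which 119 stayed within 1.5 times and 39 did not. No gene was called higher in any alternative of the medium control, the days of induction or the stem cell comparisons, and none lower in any alternative of the media pairs. Medium control, R9: 5 genes became 1 with a minimum of 5 CPM, 8 with quantile normalization, 10 with median centring, 25 by edgeR, 18 by DESeq2 and 24 with all 4 progenitor libraries, and 18 to 22 when 1 of those 4 was left out. Medium control, R10: 27 to 29 in place of 28 under other settings, and 0 to 10 when 1 library was left out, which leaves 1 residual degree of freedom; with the replicate block 29 were called (the replicate numbers 2 and 3 are shared by both arms, with deviations correlated at r = 0.474 over 14688 genes, and no label says that they pair the cultures). Days of induction, R10: 18 became 28 by DESeq2, 7 without day 18, and 0 to 24 without 1 library. Late against early days: 1 became 2 with median centring and by DESeq2 and 0 to 4 without 1 library. Media pairs, R9: 11 became 7 with quantile normalization, and 7 to 11 without 1 pair. Media pairs, R10: 0 became 3 with no filter, a minimum of 5 CPM, median centring and edgeR; leaving out a pair leaves no residual degree of freedom. All 5 pairs: 10 became 4 to 11 without 1 pair. Stem cells, R9: 20 became 11 to 20 without 1 library. Factors at day 2: 0 became 1 by DESeq2. Stem cells against progenitors in R10, Fasn: -1.61 turned to 0.35 (adjusted p = 0.714) with the R1 library without an n number as the 1 stem cell library. The cause of these shifts was not tested. Over all genes, the share of calls that were higher moved by over 10 percentage points in the R9 medium control (94.2%, and 32.7% with median centring), late against early days (44.3% and 57.3%) and factors at day 2 (96.5% and 72.4%). The share of Srebf1 at the upstream start, 42.0 percentage points higher in R10 stem cells, was 18.1 without weighting by length, 4.61 with a window of 200 bases, 42.0 with 1000 bases and 37.6 to 45.3 without 1 library; these were chosen after seeing the data.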
